A study of Mus musculus with 16 samples.

Results

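PGC-1 alpha, encoded by Ppargc1a, and 9 further genes of the nuclear programme for mitochondrial gene expression were followed in mouse liver. The 10 genes were Ppargc1a and Ppargc1b (coactivators), Esrra, Nrf1 and Gabpa (transcription factors), and Tfam, Tfb2m, Polrmt, Polg and Lrpprc (the machinery that copies, transcribes and stabilises the mitochondrial genome and its RNA). They were chosen by name, as the rows whose Ensembl identifiers map to these symbols on GRCm38, out of 55487 genes in the table. The sum of the 37 genes whose symbols start with mt-, which are encoded by the mitochondrial genome, was set beside them. Bulk RNA of whole liver was sequenced from 16 male C57BL6/J mice, 4 in each of 4 groups, and each mouse gave 1 library. All mice had first eaten a high-fat diet with 60% of its energy as fat to make them obese, for 8 weeks from an age of 10 weeks by the sample records, and were housed singly. They then ate a high-fat diet of standard protein (SP) or high protein (HP) content and were injected under the skin once a day for 22 days with vehicle or with 2.5 nmol/kg of G108, a long-acting agonist of the glucagon receptor. Livers were taken after a 4 h fast, on day 25 by the sample records. The study's methods give another starting age, another split of the diet period and another day for the cull, and the sources were not reconciled here. Groups are named by treatment and diet, for example G108 HP. The study paired a low dose of G108 with added protein, and for these genes the design gives 5 comparisons: G108 against vehicle on each diet, HP against SP under each treatment, and the interaction of the treatment with the diet.

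PGC-1 coactivators bind no DNA of their own. They are recruited by transcription factors such as the estrogen-related receptor alpha (Esrra), the nuclear respiratory factor NRF1 and the GABP complex, and through them raise nuclear genes for respiration and for TFAM, the packaging and transcription factor of mitochondrial DNA. In liver, Ppargc1a is a classical fasting gene: glucagon raises cAMP, and the cAMP-responsive factor CREB acts on its promoter.

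Promoter sequence is shown for the genes in which it bears on these roles. RefSeq sequence was at hand for 9 of the 10 genes, in 10 windows that run from 250 bases before to 50 bases after a transcription start (GRCm38.p6), and none was used for Ppargc1b. Each motif was searched on both strands. The core of the cAMP response element, TGACG, stood in the windows of 3 of the 9 genes (Ppargc1a, Polg and Lrpprc) and in 20.8% of 32817 promoters of the same length, whereas the full palindrome TGACGTCA, which contains the core, stood in 1.79% of all promoters and in 0 of the 9. The 250 bases before the start of Ppargc1a, on the minus strand at chr5:51567726-51567975, are given 5′ to 3′ with the core in capitals as it reads on the gene's strand (CGTCA, 49 to 45 bases before the start).
Ppargc1a: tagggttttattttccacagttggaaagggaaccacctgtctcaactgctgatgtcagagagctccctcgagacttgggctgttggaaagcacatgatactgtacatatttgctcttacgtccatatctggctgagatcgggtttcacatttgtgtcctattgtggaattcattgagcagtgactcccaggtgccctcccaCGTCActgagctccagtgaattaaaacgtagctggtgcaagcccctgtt

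The binding letters of the factors in the list were also found in the promoters of other members, shown next in short windows with the motif in capitals. The NRF1 letters GCATGCGC were present in Esrra, Polrmt and Tfb2m (3 of the 9 genes, against 2.71% of all promoters), and the longer NRF1 palindrome that contains these letters was found in 0 of the 9 genes (0.966% of all promoters). The GABPA letters CCGGAAGT were present in Tfam and Polg (3.89% of all promoters), and the shorter CCGGAAG, which they contain, in Gabpa and Polrmt as well (8.86%). Neither TCAAGGTCA (0.424%) nor AAGGTCA (4.72%), the letters bound by estrogen-related receptors, was found in the windows searched. These matches describe letters only and are not binding sites measured in these livers. All 5 windows below are on the minus strand of GRCm38.p6.
Esrra, chr19:6921825-6921852: cccctgttttGCATGCGCaggccggccc
Polrmt, chr10:79746697-79746724: gagtatttctGCGCATGCtctcttgccg
Tfb2m, chr1:179546246-179546273: taggtcgttcGCATGCGCcattcgtaat
Tfam, chr10:71238074-71238101: ctgccgcggaCCGGAAGTccgggcttcc
Polg, chr7:79466294-79466321: aggacctcacCCGGAAGTccctctgcac

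Levels are given in scaled TPM. The deposited values are in TPM, read counts per exon length brought to the same total in each library, so that a change in a few very abundant genes moves the value of every other gene. The major urinary protein (Mup) genes took 42.6% to 49.7% of the TPM of vehicle SP livers but 18.3% to 23.0% of those of G108 SP livers, and the median gene stood 0.60 higher on the log2 scale in G108 SP than in vehicle SP. Each library was divided by its median ratio to the geometric mean of all libraries, after which that median difference was -0.01, and a change in scaled TPM is a change relative to the typical gene. As recovered from the table, the libraries held 27804258 (G108 SP mouse 1) to 45033380 reads (vehicle SP mouse 1). The 5 hepatocyte markers summed to 25537 to 38479 scaled TPM per library, while the 3 adipocyte markers summed to at most 0.238 and the 4 skeletal muscle markers to at most 1.497. The 3 blood markers ranged from 350 to 1560, and the Kupffer and stellate cell markers did not pass 56.5. The 4 endothelial cell markers summed to 15.97 to 18.8 in vehicle SP and 12.6 to 13.9 in G108 SP, without overlap, and to 14.5 to 17.3 in vehicle HP and 13.8 to 18.4 in G108 HP, and their part in the differences on SP was not tested. Vehicle SP mouse 4 and G108 HP mouse 3 stood apart, with the largest mt- sum of their groups (24.0% and 37.3% of all TPM) and with the steepest rise of a gene's level with its GC content, at 0.096 and 0.051 log2 units per 10 percentage points of GC. Members that moved most on SP without these mice, and Esrra on HP, are given in both ways.

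In scaled TPM, Ppargc1a was the only member called in any of the 5 comparisons, and it was higher with G108 on both diets. The gene (ENSMUSG00000029167) lies on the minus strand of GRCm38 at chr5:51454250-51567726 in the GENCODE M21 annotation, which gives the positions of the other members too. Its scaled TPM was 1.61, 0.658, 0.864 and 0.660 in the 4 vehicle SP mice and 2.07, 2.84, 3.08 and 2.27 in the 4 G108 SP mice, so every G108 SP mouse lay above every vehicle SP mouse. On HP it was 0.944, 0.907, 0.972 and 1.13 with vehicle and 1.73, 2.50, 2.15 and 2.24 with G108, again without overlap. The highest vehicle mouse of all, vehicle SP mouse 1, came close to the lowest G108 mouse, G108 HP mouse 1. The group means were 0.947 ± 0.450 (SD, n = 4) in vehicle SP, 0.988 ± 0.098 in vehicle HP, 2.56 ± 0.473 in G108 SP and 2.16 ± 0.322 in G108 HP, which makes the ratio of means 2.71 on SP and 2.18 on HP. These are low levels, resting on 107 to 272 reads per vehicle SP library and 348 to 647 reads per G108 SP library. In bulk liver, a change in the number of cells that express a gene cannot be told apart from a change in the RNA of each cell.

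In limma with Benjamini-Hochberg adjustment over 11749 genes, Ppargc1a rose with G108 on the log2(scaled TPM + 1) scale. The increase was 0.89 (SE 0.14) on SP, with a limma adjusted p of 0.00276, and 0.66 (SE 0.14) on HP, with a limma adjusted p of 0.0344. That is 1 of 9 members tested on each diet, where 2.75% of all genes were called on SP (1.34% higher) and 1.22% on HP (0.63% higher). A pseudocount of 1 compresses the change of such a low gene: on the recovered reads, limma-voom gave 1.52 for SP and 1.12 for HP (adjusted p = 0.00129 and 0.0217). The call on SP was kept without any single mouse, with adjusted p from 0.000246 to 0.0146, but was just missed when only the 2 SP groups were fitted (limma adjusted p = 0.0556). The call on HP was weaker. It was lost in 8 of 16 fits that left out 1 mouse, namely any vehicle HP mouse, G108 HP mouse 2, 3 or 4, or G108 SP mouse 2 (limma adjusted p over all 16 from 0.00843 to 0.113), and it was lost without vehicle SP mouse 4 and G108 HP mouse 3 together (0.66, adjusted p = 0.0790, against 0.0599% of all genes called). The change on HP and that on SP differed by -0.23 (SE 0.20), and this interaction did not pass (limma adjusted p = 0.616).

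**Figure D1:**
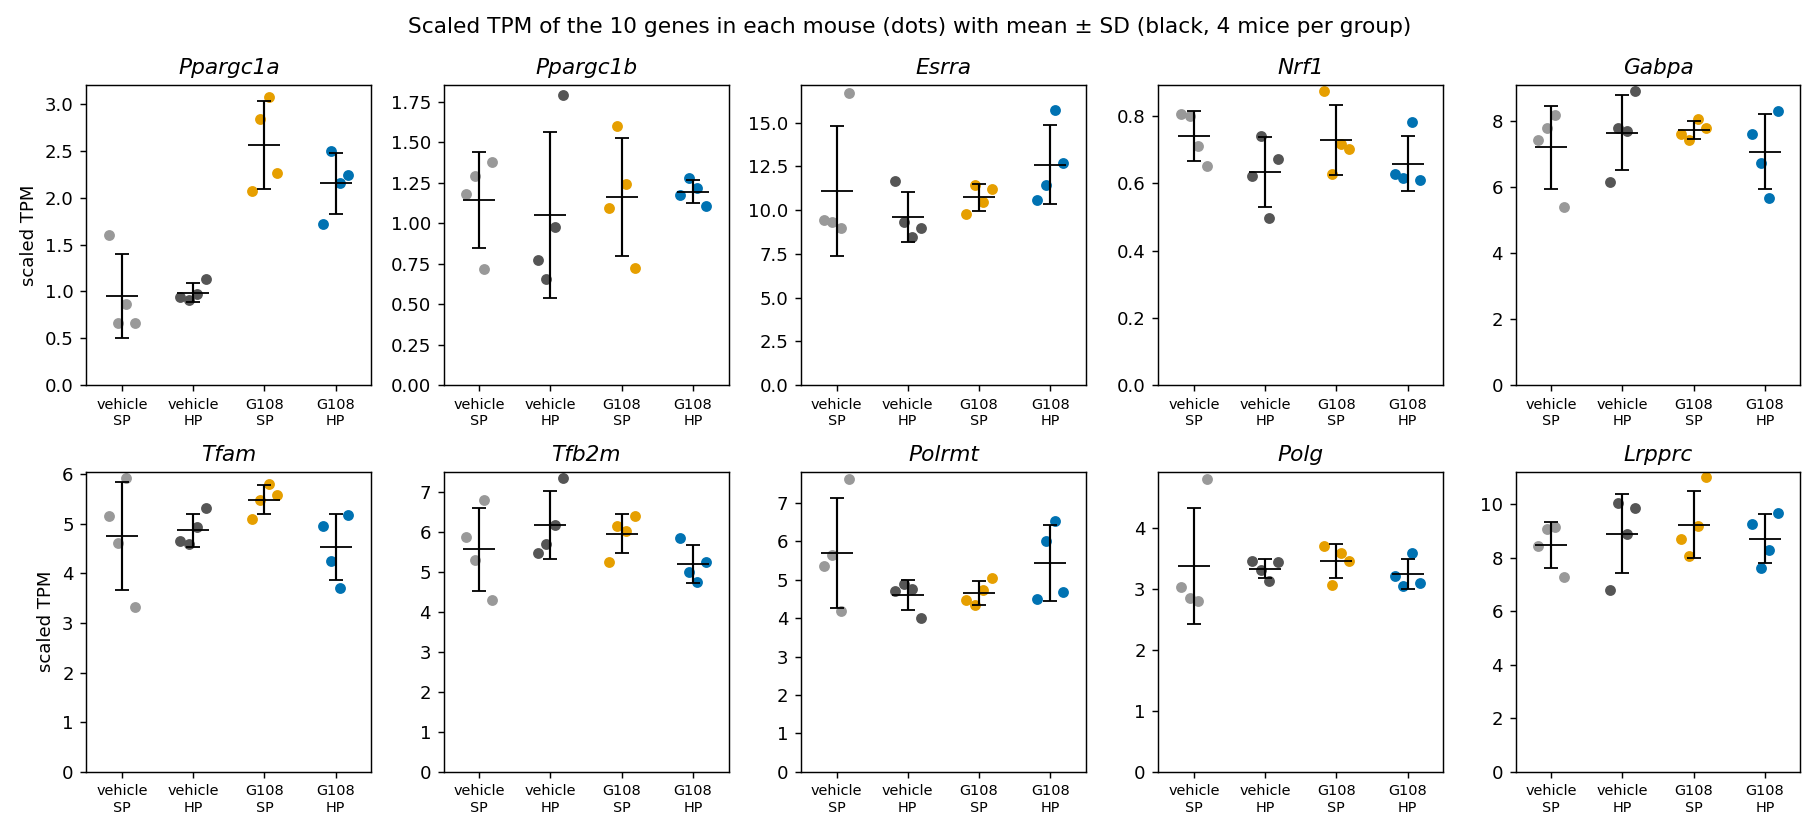
Scaled TPM (vertical axes, each from 0) of the 10 genes in each of 16 mice, with 4 mice per group (dots) and the group mean ± SD (black). Ppargc1a is the only gene in which the G108 mice of a diet, at 1.73 or more, all lie apart from the vehicle mice of that diet, at 1.61 or less; in Esrra and Polg, vehicle SP mouse 4 lies well above its group.

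The second coactivator, Ppargc1b (ENSMUSG00000033871), which shares partners with PGC-1 alpha and is best known for activating lipogenic and respiratory genes, gave no such pattern. Its scaled TPM was 1.18, 1.29, 0.714 and 1.38 in vehicle SP and 1.09, 1.60, 1.24 and 0.720 in G108 SP. On HP the values were 0.771, 0.653, 0.976 and 1.79 with vehicle and 1.17, 1.28, 1.22 and 1.11 with G108. The groups overlapped on both diets, and the fitted difference was 0.01 on SP and 0.13 on HP (SE 0.16, limma adjusted p = 0.975 and 0.845). At 70 to 173 reads per library, its spread between mice was wide: the 4 vehicle HP mice alone ran from 0.653 to 1.79.

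Among the nuclear factors, Esrra (ENSMUSG00000024955, chr19:6910977-6921813, minus strand), the orphan receptor that is both a partner and a target of PGC-1 alpha, was the most abundant of the 10 genes per length, with a mean of 11 scaled TPM. It was 9.42, 9.29, 8.95 and 16.7 in vehicle SP and 9.75, 11.4, 10.5 and 11.2 in G108 SP, so vehicle SP mouse 4 was above every G108 SP mouse and the other 3 were below. The difference on SP was -0.00 (SE 0.17, limma adjusted p = 0.994), and without that mouse it was 0.20. On HP it was 11.7, 9.29, 8.45 and 9.00 with vehicle and 10.6, 11.4, 15.7 and 12.7 with G108, a difference of 0.35 (SE 0.17) that did not pass (unadjusted p = 0.0557, limma adjusted p = 0.457). That difference on HP was 0.25 without vehicle SP mouse 4 and G108 HP mouse 3 (limma unadjusted p = 0.0275, limma adjusted p = 0.341). The exons of Esrra share 2.07% of their bases with Mir6990 on the same strand and 1.66% with Trmt112 on the other strand, and its recovered reads were not whole numbers.

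Nrf1 (ENSMUSG00000058440, chr6:30047988-30153458, plus strand), whose product binds the promoters of many respiratory genes, was the lowest of the members. Its mean was 0.691 scaled TPM, under the minimum of 1 set for the test, and its values ran from 0.497 to 0.874 in 16 mice with all groups overlapping. The group means were 0.742 ± 0.075 in vehicle SP, 0.634 ± 0.10 in vehicle HP, 0.730 ± 0.10 in G108 SP and 0.659 ± 0.082 in G108 HP, and with no filter the difference with G108 was -0.01 on SP and 0.02 on HP. Gabpa (ENSMUSG00000008976, chr16:84834925-84863779, plus strand), the DNA-binding subunit of the GABP complex, was 7.43, 7.80, 8.21 and 5.39 in vehicle SP and 7.60, 7.44, 8.07 and 7.79 in G108 SP, a difference of 0.10 (SE 0.13). On HP it was 6.17, 7.81, 7.71 and 8.93 with vehicle and 7.61, 6.74, 5.67 and 8.31 with G108, a difference of -0.10 (SE 0.13). Neither difference passed (limma adjusted p = 0.682 and 0.850). Of the bases in the exons of Gabpa, 6.98% are shared with Atp5j on the other strand.

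Tfam coats mitochondrial DNA and opens its promoters, and Tfb2m and Polrmt are the initiation factor and the RNA polymerase that work with it. Tfam (ENSMUSG00000003923) lies at chr10:71225464-71238280, Tfb2m (ENSMUSG00000026492) at chr1:179528055-179546267 and Polrmt (ENSMUSG00000020329) at chr10:79736123-79746581, all on the minus strand. Tfam was 5.16, 4.61, 5.92 and 3.32 in vehicle SP and 5.10, 5.49, 5.80 and 5.58 in G108 SP. Vehicle SP mouse 4 was its lowest liver and the rest of the group overlapped with G108 SP, and the difference was 0.19 (SE 0.13, limma adjusted p = 0.421). On HP, Tfam was 4.65, 4.59, 4.93 and 5.32 with vehicle and 4.95, 4.26, 3.72 and 5.18 with G108, a difference of -0.09 (limma adjusted p = 0.857). Tfb2m was 5.87, 5.31, 6.81 and 4.31 in vehicle SP and 5.26, 6.15, 6.03 and 6.402 in G108 SP, with vehicle SP mouse 4 again the lowest of the 8 mice. On HP it was 5.47, 5.70, 6.19 and 7.37 with vehicle and 5.85, 4.998, 4.75 and 5.24 with G108, so that 3 of 4 G108 livers lay below all vehicle livers. Its differences, 0.09 on SP and -0.21 on HP (SE 0.12), did not pass (limma adjusted p = 0.668 and 0.562). Polrmt was 5.36, 5.63, 4.18 and 7.63 in vehicle SP and 4.47, 4.33, 4.74 and 5.04 in G108 SP, and here vehicle SP mouse 4 was the highest. Its HP values were 4.70, 4.88, 4.77 and 4.01 with vehicle and 4.51, 5.999, 6.52 and 4.68 with G108, where mice 2 and 3 of G108 HP lay above all vehicle livers and the other 2 among them. The difference was -0.22 on SP and 0.19 on HP (SE 0.14, limma adjusted p = 0.400 and 0.695).

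Polg (ENSMUSG00000039176, chr7:79446231-79466362, minus strand), the catalytic subunit of the mitochondrial DNA polymerase, and Lrpprc (ENSMUSG00000024120, chr17:84705247-84790789, minus strand), which holds mitochondrial messenger RNAs in a stable, translatable state, did not pass in any comparison of scaled TPM. Polg was 3.03, 2.86, 2.81 and 4.80 in vehicle SP and 3.71, 3.06, 3.58 and 3.46 in G108 SP, so that 3 vehicle livers lay below all G108 livers and vehicle SP mouse 4 above them. The HP livers had 3.45, 3.31, 3.12 and 3.44 with vehicle and 3.21, 3.05, 3.59 and 3.10 with G108, which overlapped. It differed by 0.05 on SP and by -0.03 on HP (SE 0.11), and 8.57% of its exon bases are shared with Fanci on the other strand. Lrpprc was 8.45, 9.06, 9.14 and 7.26 in vehicle SP and 8.70, 8.07, 9.18 and 11.01 in G108 SP. The HP values were 6.81, 10.05, 8.88 and 9.87 with vehicle and 9.26, 7.63, 8.29 and 9.67 with G108, with overlap on both diets. Lrpprc differed by 0.11 on SP and by -0.02 on HP (SE 0.12). None of these 4 differences passed (limma adjusted p from 0.641 to 0.976). Ordered by mean scaled TPM, which is per length, the genes were Esrra (11), Lrpprc (8.83), Gabpa (7.42), Tfb2m (5.73), Polrmt (5.09), Tfam (4.91), Polg (3.35), Ppargc1a (1.66), Ppargc1b (1.14) and Nrf1 (0.691), and each gene's range over the 16 mice overlapped with that of its neighbours in this order.

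A steep GC slope in vehicle SP mouse 4 coincided with the values just given. Esrra, Polrmt and Polg, whose longest transcripts hold 50.3%, 60.5% and 52.7% GC, were highest of all vehicle SP livers in that mouse, as was Ppargc1b (57.8%). Gabpa, Tfam, Tfb2m and Lrpprc, with 41.4% to 47.1% GC, were lowest, as was Nrf1 (45.4%). Ppargc1a, with 41.7% GC, was nearly lowest there, at 0.660 scaled TPM against 0.658 in vehicle SP mouse 2. The slope of each library was computed from the scaled levels of 11670 genes, tested members included. Fits and relations that use it are therefore not independent of the values tested. When the GC slope was added to the fit as a covariate, an alternative chosen after seeing the data, 2 more members passed on SP: Tfam at 0.25 (SE 0.07, limma adjusted p = 0.0329) and Polrmt at -0.29 (SE 0.08, limma adjusted p = 0.0307), where 14.9% of all genes were called. Ppargc1a was at 0.90 on SP and 0.68 on HP in that fit (limma adjusted p = 0.00281 and 0.0443), and on HP it was the single member called, against 0.979% of all genes. Without vehicle SP mouse 4 and G108 HP mouse 3, Ppargc1a alone passed on SP (0.82, limma adjusted p = 0.0148), against 2.1% of all genes. In that fit Tfam was at 0.062 and Polrmt at -0.094 on SP, closer to 0 than with all mice, while Polg was at 0.19 and Esrra at 0.20 (limma adjusted p = 0.791, 0.738, 0.173 and 0.397).

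Which scale is used decides what the other members show on SP. In TPM as deposited, all 9 members tested were called higher with G108 on SP, with log2 changes from 0.43 (Ppargc1b) to 1.38 (Ppargc1a), but 77% of all genes were called higher there and the median gene was 0.60 higher. Relative to that median, on the log2(TPM + 1) scale, Ppargc1b and Polrmt (both 0.43) lay below it and Polg (0.66) and Esrra (0.71) close to it. Tfb2m (0.76), Gabpa (0.78), Lrpprc (0.81) and Tfam (0.84) lay above it, and Ppargc1a above it by more than any other member. The pseudocount of 1 compresses low genes most, so these places also depend on a gene's level. For Ppargc1b the ratio of mean TPM was 1.75, against 1.42 for Polrmt and 1.79 for Polg, and its ratio in scaled TPM was 1.02. On HP the median of all genes was 0.09 as deposited, and Ppargc1a was again the single call (0.73, limma adjusted p = 0.0338, against 0.819% of all genes called higher). Without overlap between the groups were 8 of 10 members as deposited and 1 of 10 as scaled on SP, against 56.4% and 9.24% of all genes. On HP they were 2 and 1, against 8.86% and 8.13%.

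**Figure D2:**
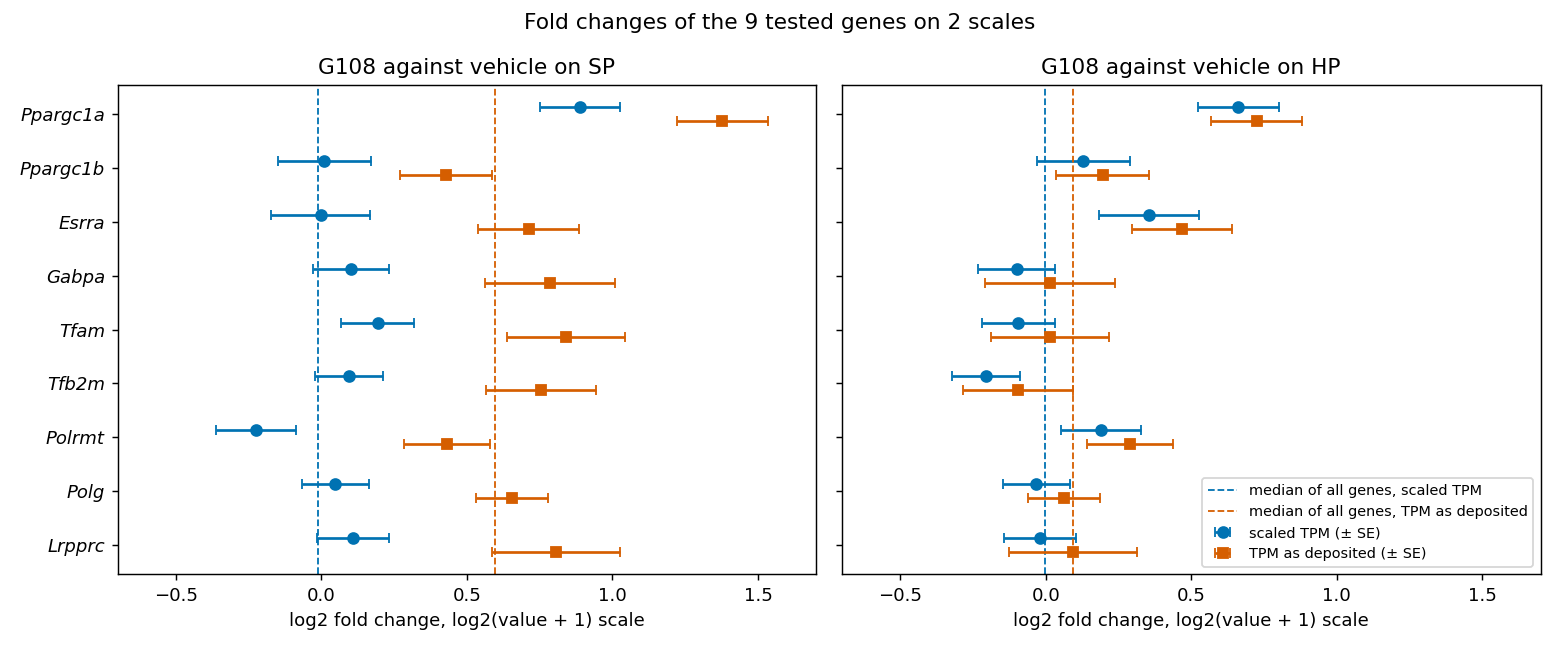
Log2 fold change (horizontal axes, log2(value + 1) scale) of the 9 tested genes for G108 against vehicle on SP (left) and HP (right), in scaled TPM (blue) and TPM as deposited (orange), with SE bars and the median of all genes as dashed lines. On SP the deposited values lie on both sides of the all-gene median of 0.60, more of them above it. The scaled values lie on both sides of -0.01, with Ppargc1a to the right of both medians.

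Between the diets, no member passed. With G108, the HP livers differed from the SP livers by -0.17 in Ppargc1a (SE 0.14), -0.24 in Tfam (SE 0.13) and 0.20 in Esrra (SE 0.17), and the other 6 differences lay between -0.17 and 0.17 (limma adjusted p of at least 0.858). With vehicle, they ran from -0.24 in Polrmt to 0.13 in Tfb2m, with Ppargc1a at 0.05 (limma adjusted p of at least 0.832). The interaction ran from -0.30 in Tfb2m to 0.41 in Polrmt (limma adjusted p of at least 0.576). At an unadjusted p under 0.05 there were 0 members in each of these 3 comparisons, and limma-voom on the recovered reads called 0 as well, with 1 member under 0.05 unadjusted for the interaction. With the GC slope as a covariate 4, 0 and 3 members had an unadjusted p under 0.05 in the 3 comparisons, against 15.2%, 3.82% and 13% of all genes, and in TPM as deposited 6, 0 and 6, against 45%, 3.16% and 48%. Without vehicle SP mouse 4 and G108 HP mouse 3 there were 0, 1 and 1, against 5.28%, 3.47% and 3.96%, and 0 members passed after adjustment in any of these fits. The share of all genes called was 0 in the 3 comparisons, and 5.38%, 3.91% and 7.21% of all genes had an unadjusted p under 0.05. In scaled TPM the members' groups overlapped in every case, against 4.31% of all genes without overlap between the diets under G108 and 2.01% under vehicle. As deposited, Nrf1 and Polg were lower in every G108 HP liver than in every G108 SP liver, against 20.7% of all genes without overlap, and 0 members did not overlap under vehicle, against 1.47%. A p that misses the threshold does not show that these levels were equal.

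The mt- sum, the readout of the genome that these factors serve, was 16.1%, 16.2%, 13.8% and 24.0% of all TPM in the vehicle SP mice and 20.9%, 21.02%, 17.03% and 16.6% in the G108 SP mice. On HP it was 20.7%, 17.3%, 17.8% and 15.2% with vehicle and 20.97%, 27.4%, 37.3% and 21.02% with G108. Every G108 HP mouse lay above every vehicle HP mouse, by 8.94 percentage points between the means (two-sided exact permutation p = 0.0286, the smallest that 4 against 4 mice can give). The difference was 1.39 points on SP (exact p = 0.571). Without G108 HP mouse 3 the difference on HP was 5.40 points, still without overlap (exact p = 0.0571). The test also missed 0.05 without any 1 of the 4 vehicle HP mice, with exact p up to 0.114. Between the diets, the share was 7.78 points higher on HP under G108 (exact p = 0.0857) and 0.231 points higher under vehicle (exact p = 0.943). A share of TPM also moves when another large share does. Mup genes took 35.7% to 44.9% of the TPM of vehicle HP livers and 18.2% to 29.6% of those of G108 HP livers. The part of that fall in the mt- share was not tested.

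Relative to the typical gene the pattern differed. In scaled TPM, the mt- sum of G108 SP livers was 0.640 times that of vehicle SP livers (log2 -0.64, exact p = 0.143) and that of G108 HP livers 1.35 times that of vehicle HP livers (log2 0.43, exact p = 0.229). Neither passed. The difference between these 2 changes was 1.07 on the log2 scale (exact permutation p = 0.0310), while the share of TPM gave an interaction of 7.55 points (exact permutation p = 0.191). Treatment was relabelled within each diet, so this p refers to no effect of G108 on either diet rather than to equal effects. It was not adjusted over the comparisons of the mt- sum. Without vehicle SP mouse 4 and G108 HP mouse 3 the difference between the 2 changes was 0.58 on the log2 scale (exact permutation p = 0.116). Leaving out 1 mouse lost the call in 7 of 16 fits, namely without vehicle SP mouse 4, vehicle HP mouse 2 or 4, G108 SP mouse 3 or 4, or G108 HP mouse 2 or 3 (exact permutation p over all 16 from 0.0106 to 0.0653). Between the diets under G108 the scaled sum differed by 0.91 on the log2 scale (exact p = 0.0571), and under vehicle by -0.16 (exact p = 0.686). Ppargc1a was thus higher with G108 on both diets, whereas the mt- sum as a share of TPM passed on HP only and in scaled TPM on neither diet, and the interaction of Ppargc1a, at -0.23, did not pass.

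**Figure D3:**
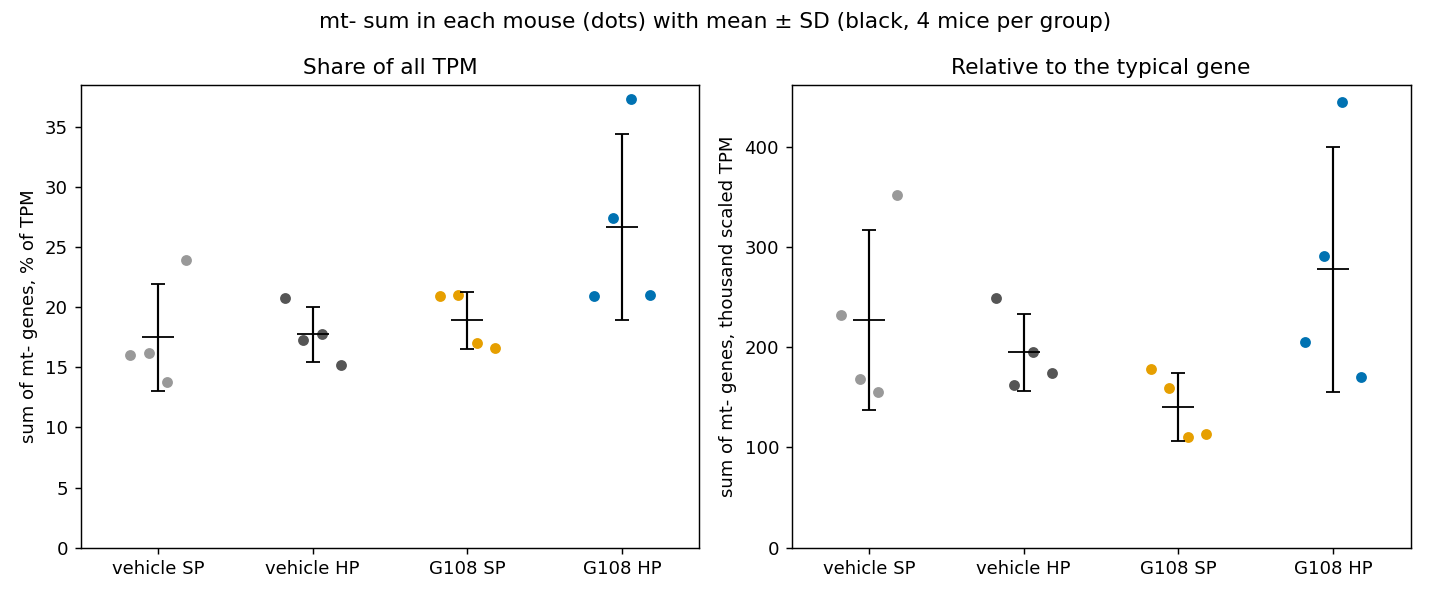
Sum of the 37 mt- genes in each mouse (dots) with mean ± SD (black, 4 mice per group), as a percentage of all TPM (left) and in scaled TPM (right), both axes from 0. The 4 G108 HP mice lie at 20.97% to 37.3% of TPM, above the vehicle HP mice at 15.2% to 20.7%, and on the right the same groups overlap.

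Whether a liver with more mitochondrial transcript also had more of these factors was examined within groups, as deviations of each of the 16 mice from its group mean. Ppargc1a showed no relation to the mt- sum in scaled TPM (Pearson r = -0.025, Spearman rho = 0.12, permutation p = 0.947 and 0.710). Gabpa had the strongest, and it was negative (r = -0.89, rho = -0.88, permutation p = 8.00e-05 and 7.00e-05). It was followed by Tfam (r = -0.81, rho = -0.76, permutation p = 0.00221 and 0.0114) and Lrpprc (r = -0.75, rho = -0.73, permutation p = 0.000900 and 0.000560). Tfb2m was negative too (r = -0.67, rho = -0.64, permutation p = 0.0111 and 0.0162), and Polrmt (r = 0.69), Esrra (r = 0.68) and Polg (r = 0.62) were positive, with rho from 0.55 to 0.59 and permutation p from 0.0218 to 0.0317 for r and 0.0494 to 0.0723 for rho. Adjusted over the 10 relations computed, the p for r was 8.00e-04 for Gabpa, 0.00737 for Tfam, 0.00450 for Lrpprc, 0.0277 for Tfb2m and at most 0.0453 for Polrmt, Esrra and Polg, so that 7 relations passed by r, and 4 passed by rho. Both measures of a relation share the library and its scaling factor.

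Most of these genes went with the GC slope of the library, with r = -0.90 for Tfam, -0.87 for Tfb2m, -0.82 for Gabpa, 0.88 for Polrmt and 0.83 for Esrra (permutation p from 0.000780 to 0.00300, each 0.00660 adjusted over 11 relations), and so did the mt- sum itself (r = 0.72, permutation p = 0.00776, adjusted p = 0.0137). Lrpprc went with it less closely (r = -0.58, permutation p = 0.00874, adjusted p = 0.0137), and Polg did not pass (r = 0.72, permutation p = 0.0675, adjusted p = 0.0928). The 2 mice farthest from the median of the mt- sum were vehicle SP mouse 4 and G108 HP mouse 3. Without them, and with group means taken anew, r was -0.75 for Gabpa and -0.82 for Lrpprc (permutation p = 0.00124 and 0.00117), -0.58 for Tfam and -0.46 for Tfb2m, and between 0.07 and 0.31 for Polrmt, Esrra and Polg, which rested on those mice. With TPM rescaled without mt- and Mup genes, the negative relations were stronger. There r was -0.95 for Gabpa, -0.94 for Tfam, -0.84 for Tfb2m and -0.83 for Lrpprc (permutation p adjusted, at most 0.000425). On that scale Esrra (0.46), Polrmt (0.43) and Polg (0.26) did not pass. With the GC slope removed within groups, Gabpa alone passed after adjustment (r = -0.75, permutation p = 0.00249, adjusted p = 0.0249), and Lrpprc stood at -0.58 (adjusted p = 0.135). By rho, 0 relations passed with the GC slope removed (adjusted p = 0.0571 for Gabpa). A GC-dependent difference between libraries moves with these relations, and its part in them was not tested beyond these values.

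**Figure D4:**
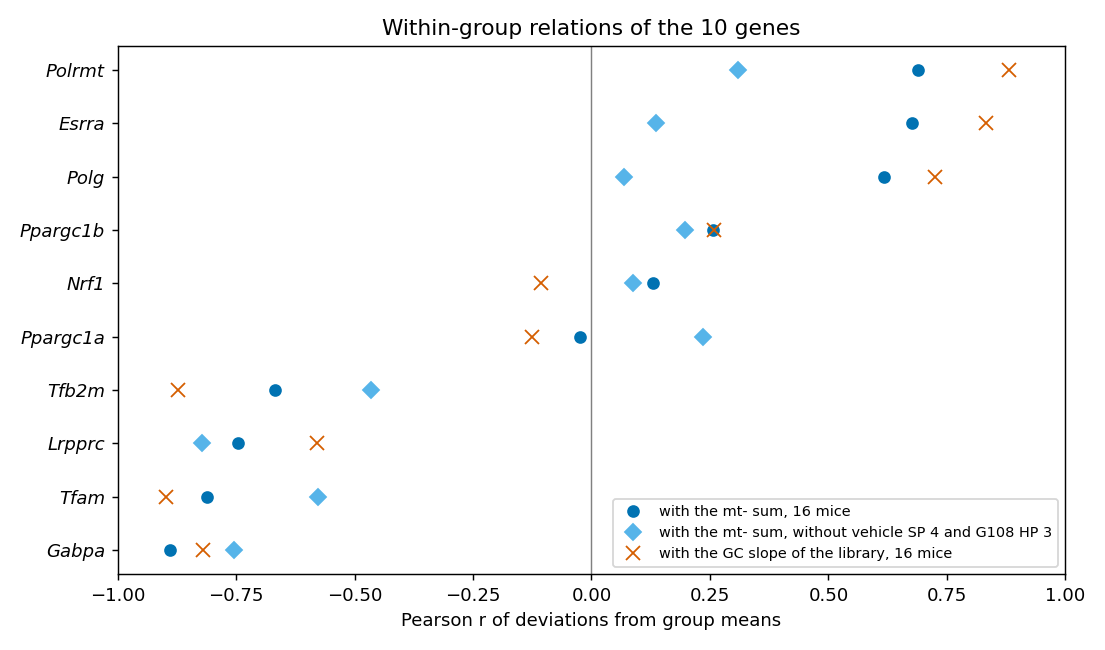
Pearson r (horizontal axis) of each of the 10 genes with the mt- sum over 16 mice (circles), with the mt- sum without vehicle SP mouse 4 and G108 HP mouse 3 (diamonds) and with the GC slope of the library (crosses), all from deviations from group means. Gabpa and Lrpprc remain below -0.7 without the 2 mice, Polrmt, Esrra and Polg fall to 0.31 or less, and Ppargc1a stays between -0.13 and 0.24.

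The surrounding pathway was read from 4 further lists, in which no gene passed in any of the 5 comparisons in scaled TPM, nor with limma-voom on the recovered reads. Without vehicle SP mouse 4 and G108 HP mouse 3, 1 gene passed on SP, Rexo2, a mitochondrial oligoribonuclease (-0.33, limma adjusted p = 0.0370), against 2.1% of all genes. Of 20 genes of mitochondrial DNA transcription, replication and nucleoid upkeep, 17 were tested, with a median change of -0.08 on SP and 0.05 on HP, and 4 and 0 of them had an unadjusted p under 0.05, against 17.7% and 11.2% of all genes. Lonp1, the matrix protease that degrades unbound TFAM, went from 21.8 ± 2.49 to 27.4 ± 2.85 scaled TPM on SP (0.32, limma adjusted p = 0.158) and from 24.5 ± 1.72 to 23.6 ± 2.88 on HP. Atad3a, a membrane ATPase of the nucleoid, was 16.8 ± 3.48 and 15.5 ± 0.565 on SP. Of 20 genes of mitochondrial RNA processing and stability, 18 were tested, with medians of -0.03 and 0.05 and 1 gene under 0.05 unadjusted on each diet. That gene was Hsd17b10, a subunit of mitochondrial RNase P that also works in isoleucine breakdown, at 98.7 ± 3.77 and 71.5 ± 11.2 on SP (-0.47, limma adjusted p = 0.0856) and 107 ± 18.6 and 85.3 ± 9.60 on HP (-0.31, limma adjusted p = 0.395). Grsf1, which binds RNA in mitochondrial granules, was 17.3 ± 5.35 and 19.9 ± 2.53 on SP.

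Among 22 regulators and partners of the PGC-1 coactivators, 17 were tested, with medians of 0.05 on SP and 0.02 on HP. Of them, 2 and 1 had an unadjusted p under 0.05, against 17.7% and 11.2% of all genes. Hnf4a, the hepatocyte factor that PGC-1 alpha coactivates on gluconeogenic genes, was 58.2 ± 5.88 and 65.2 ± 13.98 on SP and 62.8 ± 10.9 and 59.0 ± 9.50 on HP. Sirt3, the mitochondrial deacetylase, was 14.7 ± 1.48 and 13.2 ± 0.708 on SP. Of the 17 nuclear respiratory chain genes, all tested, 3 and 0 had an unadjusted p under 0.05, against the same shares of all genes. The medians of these respiratory chain genes were 0.04 and 0.11. Their most abundant members, the cytochrome c oxidase subunits Cox6a1 and Cox4i1, were 369 ± 49.2 and 199 ± 20.96 in vehicle SP and 334 ± 46.2 and 197 ± 30.6 in G108 SP. With the GC slope as a covariate, 1, 1, 0 and 5 genes of the 4 lists in this order passed on SP, against 14.9% of all genes. They were Lonp1 (0.35), Hsd17b10 (-0.47) and, from the respiratory chain, Atp5b (0.92), Sdha (0.80), Atp5a1 (0.72), Ndufv1 (0.45) and Cox7c (-0.62), named after their values were seen. As deposited, 14, 17, 15 and 16 of them were called higher on SP, beside the 77% of all genes.

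The genes whose levels ran most like Ppargc1a over the 16 libraries were Rbms1 (r = 0.95), Ung (0.95), Arhgap18 (0.94), Etnk2 (0.94) and Gm28040 (0.93), by Pearson r of log2(scaled TPM + 1). This is a description of profiles that all step up with G108, and the points share their libraries. Ung, the uracil DNA glycosylase that has nuclear and mitochondrial forms, was 1.01 ± 0.346 in vehicle SP, 0.887 ± 0.235 in vehicle HP, 2.56 ± 0.233 in G108 SP and 2.17 ± 0.266 in G108 HP, at nearly the same level as Ppargc1a. Etnk2, an ethanolamine kinase, was far more abundant, with 65.1 ± 12.1, 70.6 ± 3.72, 155 ± 29.3 and 149 ± 24.7 in the same order. Gm28040 shares 48.0% of its exon bases with Kiss1 and 48.6% with Golt1a on the same strand, so its reads are uncertain. The members themselves had r with Ppargc1a between -0.14 (Polrmt) and 0.32 (Tfam).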

How the data were processed

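Total liver RNA was extracted with TRIzol and sequenced by the study. As the study's methods and the submitters' processing notes state, reads were checked with FastQC (0.11.8), aligned to GRCm38 with HISAT2 (2.0.5) and counted per gene with featureCounts, and the authors deposited 1 table of TPM values for the 16 libraries. Strand use in counting is not given in the sources used here. The depth was recovered from the step that 1 read makes in a gene's value: 98.8% of 138273 values under 20 reads came within 0.02 of an integer. Depth bounds counting error only.

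TPM were divided by median-of-ratios factors from 11591 genes, as in DESeq2 (1.36.0), which the authors used. Genes with a mean of at least 1 scaled TPM (11749) were fitted as log2(scaled TPM + 1) with limma 3.58.1 (R 4.3.3, trend) over all 16 libraries, 1 coefficient per group, with Benjamini-Hochberg adjustment and a threshold of 0.05. The mt- sums were compared by two-sided exact permutation of mice, without adjustment, and within-group relations by 100000 permutations within groups. For the interaction of the mt- sum, treatment was relabelled within each diet. Symbols, exons and GC content came from GENCODE M21 (GRCm38), which matched 55227 identifiers. Alternatives were deposited TPM, rescaling without mt- and Mup genes, a pseudocount of 0.1, other filters, the groups compared alone, a replicate block, array weights, voom on recovered reads and leaving out each mouse. The GC slope covariate and the fit without vehicle SP mouse 4 and G108 HP mouse 3 were added after seeing the data. On simulated data with 200 genes changed by 1 on the log2 scale on SP, 82% were recovered for G108 against vehicle on SP, 81% for HP against SP with G108 and 61.5% for the interaction. Of the calls there, 4.65%, 6.90% and 3.15% were wrong. Each gene was drawn independently, without differences shared by a library. These rates therefore do not apply to smaller changes or to data with such shared differences.

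The members and lists were chosen with earlier results of these data known. All members are named. From each further list the text names called genes, or otherwise the 2 with the largest mean level, and for Ppargc1a the 5 genes of highest r. The records give the libraries of a group as separate mice. Replicates of a group had r from 0.928 to 0.989 in log2 TPM, and no pair shared more than 0.111% of values, so all 16 were counted.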

Additional observations from a re-analysis of the deposited data

Results flagged for a closer look

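With 4 mice per group, the gap test for single far values picked out 3 of 48 groups, near the 1 in 20 that chance alone gives. Esrra was 16.7 scaled TPM in vehicle SP mouse 4, against 8.95 to 9.42 in the other 3 mice of the group. Polg was 4.80 in the same mouse, against 2.81 to 3.03. Nrf1 was 0.782 in G108 HP mouse 3, against 0.611 to 0.627. Both mice had the largest mt- sum and the steepest GC slope of their groups, and the part of either in these values was not tested.

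The effect of G108 on the mt- sum in scaled TPM differed between the diets by 1.07 on the log2 scale (exact permutation p = 0.0310), with a lower sum on SP and a higher sum on HP. That p was not adjusted, and it refers to no effect of G108 on either diet rather than to equal effects. Without vehicle SP mouse 4 and G108 HP mouse 3 the difference was 0.58 (exact permutation p = 0.116), 7 of 16 fits without 1 mouse lost the call, and as a share of TPM it was 7.55 percentage points (exact permutation p = 0.191).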

How the results depend on the processing

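The call of Ppargc1a on SP was kept in 25 of 26 alternatives (limma adjusted p from 8.10e-05 to 0.0556) and that on HP in 14 of 26 (0.00843 to 0.113). A mean minimum of 5 scaled TPM leaves Ppargc1a untested. The levels of Ppargc1a, Ppargc1b and Nrf1 rest on few reads, which limits the size of change that could be seen. The cause of the differences that follow was not tested.

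On SP, 9 members were called in deposited TPM (beside 9185 of 11839 genes) and 3 with the GC slope as covariate (beside 1749 of 11749 genes). With the mean minimum of 5, or with only the groups compared, 0 members were called. On HP, 0 were called after rescaling without mt- and Mup genes, with no filter, with the mean minimum of 5, with the replicate block and without vehicle SP mouse 4 and G108 HP mouse 3, and 0 to 1 when 1 mouse was left out. Over all genes, 323 were called on SP and 143 on HP, against 214 and 17 with the block, 1843 and 796 with array weights, 102 and 50 with only the groups compared, 218 and 77 with the mean minimum of 5, 233 and 43 with no filter, and 149 to 469 and 9 to 210 when 1 mouse was left out. Mice share only a number, with r above 0.1 in 8 of 24 same-numbered pairs. With the replicate block, the exact permutation p was 0.125 for the mt- share on HP (8.94 points) and 0.125 for the interaction of the scaled mt- sum (1.07), the smallest that 4 pairs can give.

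The mt- share on HP was 5.40 points without those 2 mice and 5.40 to 10.8 when 1 mouse was left out. With the 13 mitochondrial messenger RNAs alone, the diets differed by 5.11 points under G108 (exact p = 0.0286, against 7.78 points and exact p = 0.0857 for all 37 genes) and -0.031 under vehicle (-1.01 to 2.38 with 1 mouse left out of the full sum). The scaled sum differed between the diets under G108 by 0.94 for those messenger RNAs and 0.76 after rescaling (both exact p = 0.0286, against 0.91 and 0.0571; 0.65 to 1.12 with 1 mouse left out), under vehicle by 0.077 without the 2 mice (-0.32 to 0.077), and its interaction was 0.58 without them and 0.81 to 1.28 with 1 mouse left out, where 7 of 16 fits lost the call. Relations that passed numbered 4 after rescaling, 1 with the GC slope removed and 2 without the 2 mice, and by rho 4, 0 and 2, with 2 by rho for the messenger RNAs. The r of Nrf1 was -0.34 after rescaling, and that of Ppargc1a 0.021 for the messenger RNAs, 0.096 with the GC slope removed and 0.24 without the 2 mice.

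The members' log2 changes were counted once per comparison and alternative fit. In this count 1101 values stayed the same in sign and call, 8 became stronger, 13 became weaker and 64 had the other sign. Of those 64, 0 had passed the threshold before and 2 passed it after (Esrra 0.71 and Polrmt 0.43 in deposited TPM on SP). On SP, Esrra was 0.058 after rescaling, 0.000363 with a pseudocount of 0.1, 0.19 with array weights, 0.00364 with voom and 0.20 without the 2 mice. There Gabpa was -0.014 and Tfb2m -0.00382, and Ppargc1b was -0.017 with voom and -0.012 with the GC slope. On HP, deposited TPM gave 0.013 for Gabpa, 0.015 for Tfam, 0.063 for Polg and 0.093 for Lrpprc, the GC slope gave 0.0098 for Tfam and 0.046 for Lrpprc, and Lrpprc was 2.06e-04 without the 2 mice. Between the diets under G108, deposited TPM gave -0.22 for Ppargc1b and -0.21 for Esrra and Polrmt, and rescaling gave -0.043 for Ppargc1b. Under vehicle, leaving out the 2 mice gave -0.013 for Ppargc1a, 0.043 for Esrra, -0.035 for Gabpa, -0.082 for Tfam and -0.0098 for Lrpprc, deposited TPM gave 0.016 for Ppargc1b and 0.030 for Esrra, and Tfam was -0.0096 with array weights and -0.034 with the GC slope. The interaction in deposited TPM was -0.23 for Ppargc1b, -0.24 for Esrra and -0.14 for Polrmt, and that of Gabpa was 0.0024 without the 2 mice.

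When 1 mouse was left out, values on SP ran from -0.093 to 0.12 for Ppargc1b, -0.081 to 0.20 for Esrra, -0.014 to 0.16 for Gabpa, -0.00382 to 0.18 for Tfb2m and -0.012 to 0.19 for Polg, and on HP from -0.13 to 0.038 for Lrpprc. Between the diets under G108 they ran from -0.070 to 0.13 for Ppargc1b and -0.13 to 0.0061 for Lrpprc. Under vehicle they ran from -0.014 to 0.20 for Ppargc1a, -0.24 to 0.0088 for Ppargc1b, -0.24 to 0.043 for Esrra, -0.035 to 0.17 for Gabpa, -0.082 to 0.14 for Tfam, -0.051 to 0.15 for Polg and -0.0098 to 0.16 for Lrpprc.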
